A study of Mus musculus with 19 samples.

Results

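The liver identity transcription factors described here are 9 genes: Hnf4a, Foxa1, Foxa2, Foxa3, Cebpa, Cebpb, Nr1h4, Nr5a2 and Prox1. They were chosen by symbol as textbook regulators of hepatocyte identity, and all 9 were found among the 13549 genes of the embryonic liver counts and, by mouse Ensembl identifier, among the 17606 genes of the tumour profiles. The series models fibrolamellar carcinoma, a liver cancer in which a deletion joins DNAJB1, a chaperone gene, to PRKACA, the gene of a catalytic subunit of protein kinase A (PKA). In the first comparison, bulk poly-A RNA was sequenced from whole livers at embryonic day 18.5, with 4 livers carrying a DNAJB1-PRKACA-GFP cDNA in the Rosa26 locus that Alb-Cre, driven by the Albumin promoter from mid-gestation, had switched on (numbered 6 to 9 and labelled as DNAJ1B-PKA_Overexpression), and 5 labelled control (1 to 5). The labels do not say which alleles the controls carried. In the second comparison, FL8 cells, a mouse line, were grown in gelatin capsules under the flank skin of NSG mice, and total RNA was sequenced from 5 tumours of mice given 75 mg/kg palbociclib, an inhibitor of the cell cycle kinases CDK4 and CDK6, and from 5 tumours of mice given the 0.5% methocel vehicle. Both were given by gavage for 3 days followed by 4 days without treatment, after randomization at a mean tumour size of 75 mm3. The series text names PBS as the control of this comparison, where the sample labels name methocel. Host and tumour cells are both murine, so host reads could not be separated, and FL8 is 1 line.

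Hepatocyte identity is held by a small network of transcription factors that bind each other's genes and, together, the genes of plasma proteins, metabolism and bile acid handling. HNF4A, NR1H4 (FXR, the bile acid receptor) and NR5A2 (LRH-1) are nuclear receptors, the FOXA proteins are forkhead factors that open chromatin early in liver development, CEBPA and CEBPB are leucine zipper factors, and PROX1 is a homeobox factor of the early liver bud. Protein kinase A carries the glucagon signal in hepatocytes, largely through CREB and its coactivators, towards the genes of fasting metabolism.

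Values are CPM (reads of a gene for every 1000000 reads counted in the library), with TMM normalisation (a scaling that aligns the bulk of the genes between libraries) in livers and as deposited in tumours. A gene was called where its adjusted p, from a fit over all genes, was under 0.05. In livers, Foxa2, Cebpa and Nr1h4 were lower with the fusion, by 36.3% to 42.4%, and no factor was called higher. These 3 of 9 stand beside 1704 of 13316 genes tested (12.8%) called in either direction, 6.81% lower and 5.99% higher. They are also the 3 factors whose groups did not overlap, all lower, as for 16.5% of all genes in either direction and 8.15% lower. The other 6 factors did not pass the test. Among them Hnf4a had a mean of 122 CPM in controls and 144 CPM in fusion livers. In tumours no factor was called after palbociclib, and no other gene was either (0 of 12829 tested, 0%).

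Livers fell into sets that the labels do not mention. The share of counts in ribosomal protein genes was 9.68% to 10.1% for controls 1 and 2 and fusion livers 8 and 9, but 6.16% to 7.85% for the other 5. Both sets hold controls and fusion livers, and several factors differed as much between them as between genotypes, so values within each set are given below. By Xist, controls 1 and 2 and fusion livers 6, 7 and 8 were female. In the low ribosomal set all controls were thus male and both fusion livers female, and genotype and sex cannot be told apart there. Controls of the high set were all female and those of the low set all male, so ribosomal share and sex cannot be told apart among controls. Depth was 7660736 to 45591301 counts in livers and 2955729 to 43141761 reads in tumours. Vehicle tumour 1 held 46.6% mitochondrial reads, against 1.24% to 6.47% in the other 9 tumours, and vehicle tumour 5 was the library with the fewest reads. Whether counts of Prkaca, the mouse gene of the kinase subunit in the fusion, include fusion transcripts was not tested. Prkaca was at 36.3 to 50.5 CPM in controls and 52.0 to 114 CPM in fusion livers, without overlap and in the direction the labels give. The rise passed over all livers (log2 fold change 0.78, edgeR adjusted p 0.0379) and in the low ribosomal set (1.23, 0.00164). It did not pass in the high set (0.19, edgeR adjusted p 0.367) or with sex as a covariate (0.63, 0.0979), and the difference between the sets had an unadjusted p of 0.00119 and an adjusted p of 0.103 (edgeR interaction).

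**Figure D1:**
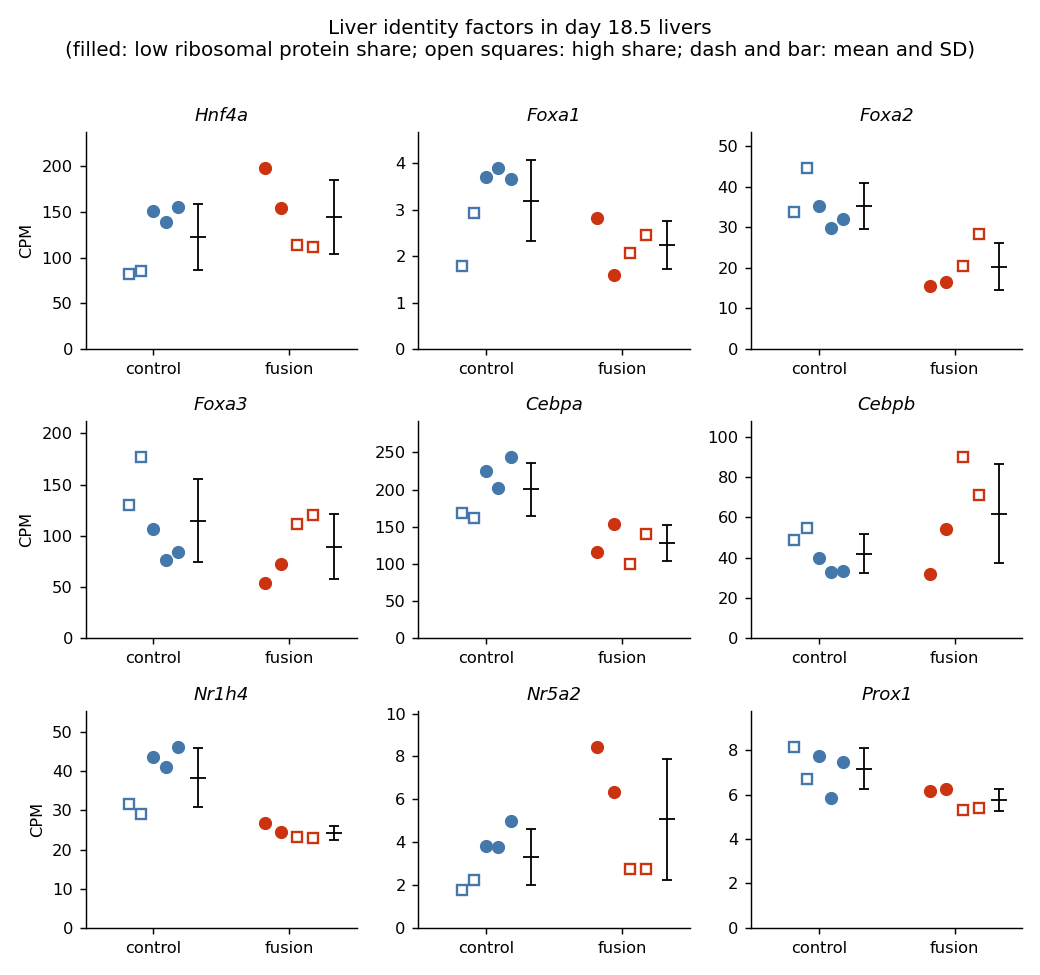
CPM of each factor in 5 control and 4 fusion livers, on linear axes from 0; each point is 1 liver in the order of its number, the dash and bar are the group mean and SD, and open squares mark the 4 livers with a high share of ribosomal protein counts. The fusion livers lie below every control for Foxa2, Cebpa and Nr1h4, and the squares separate from the circles within each genotype for Hnf4a, Foxa3, Cebpb, Nr1h4 and Nr5a2.

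Of the forkhead factors, Foxa2 had the largest fall. It was at 33.8, 44.6, 35.2, 29.9 and 32.0 CPM in controls 1 to 5 and at 15.6, 16.5, 20.5 and 28.3 CPM in fusion livers 6 to 9. Every fusion liver lay below every control, with fusion liver 9 close to control 4. Its mean was 35.1 ± 5.68 in controls (SD, n = 5) and 20.2 ± 5.81 CPM with the fusion (SD, n = 4), and the log2 fold change of -0.80 ± 0.19 (SE) had an edgeR adjusted p of 0.0189. Without fusion liver 6 or 7, the lower of the 4, the edgeR log2 fold changes were -0.67 and -0.70 and the call was lost, with the highest adjusted p at 0.0615. The fall was 0.66 on the log2 scale within the high ribosomal set (edgeR adjusted p 0.0395) and 1.02 within the low set (0.000375). No difference between those falls was called (interaction adjusted p 0.465, edgeR).

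Foxa3 was the most abundant of the 3 forkhead genes per length. It was at 130, 177, 106, 76.2 and 84.1 CPM in controls and at 53.8, 72.3, 111 and 120 CPM in fusion livers. The groups overlapped, with the high ribosomal livers on top in each genotype. The means were 115 ± 40.5 (SD, n = 5) and 89.4 ± 31.6 CPM (SD, n = 4), with a log2 fold change of -0.36 ± 0.29 (SE) and an edgeR adjusted p of 0.442. Within the high set both fusion livers (111 and 120 CPM) were below both controls (130 and 177). Within the low set both fusion livers (53.8 and 72.3) were below the 3 controls (76.2 to 106). Neither fall passed in edgeR (high set -0.39, adjusted p 0.118, and low set -0.50, 0.0644), and groups this small separate easily by chance. Foxa1 was scarce, at 1.78, 2.93, 3.72, 3.90 and 3.67 CPM in controls and 2.82, 1.60, 2.07 and 2.46 CPM in fusion livers, resting on as few as 21 counts. Its groups overlapped, its log2 fold change of -0.51 ± 0.26 (SE) did not pass the edgeR test (adjusted p 0.218), and in the high ribosomal set it was 0.05.

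The C/EBP pair parted in direction, although only Cebpa passed the test. Cebpa, which restrains proliferation and drives metabolic genes in hepatocytes, was at 169, 161, 225, 203 and 243 CPM in controls. In fusion livers it was at 116, 154, 100 and 141 CPM. All fusion values were under all control values, though fusion liver 7 and control 2 were near each other. The control mean of 200.4 ± 35.2 (SD, n = 5) fell to 128 ± 24.2 CPM (SD, n = 4), which on the log2 scale was -0.65 ± 0.17 (SE), with an adjusted p of 0.0303 in edgeR. This call was lost on leaving out control 3, 4 or 5 or fusion liver 6 or 8 (log2 fold changes of -0.55 to -0.65, highest edgeR adjusted p 0.0885), and with sex as a covariate (-0.52, adjusted p 0.0660). Within the high ribosomal set it was also lost (-0.44, edgeR adjusted p 0.0890), while in the low set it stood (-0.73, 0.00816).

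Cebpb, the family member induced by cAMP, glucagon and acute inflammation, was at 48.9, 54.9, 40.0, 32.7 and 33.3 CPM in controls. Fusion livers had 32.2, 54.2, 89.8 and 71.2 CPM. Fusion livers 8 and 9 were above every control, while fusion liver 6 was below every control. The means were 42.0 ± 9.74 (SD, n = 5) and 61.9 ± 24.6 CPM (SD, n = 4), and the log2 fold change of 0.56 ± 0.26 (SE) did not pass (edgeR adjusted p 0.181). Without fusion liver 6 it was 0.79 and passed (edgeR adjusted p 0.0381), and without fusion liver 8 it was 0.33 (0.446). Per kilobase of exon, the ratio of Cebpa to Cebpb was 1.98, 1.68, 3.21, 3.53 and 4.17 in controls 1 to 5 and 2.05, 1.62, 0.637 and 1.13 in fusion livers 6 to 9. The ratio therefore overlapped between genotypes as a whole but not within either ribosomal set. There the controls lay at 1.68 to 1.98 (high) and 3.21 to 4.17 (low) and the fusion livers at 0.637 to 1.13 and 1.62 to 2.05. Groups this small separate easily by chance, and in the low set genotype and sex cannot be told apart. The ratio was formed after the values of both genes were known and was not tested. Tmem189, on the opposite strand, shares 312 exon bases (20.7%) with Cebpb and had means of 15.0 ± 0.779 (SD, n = 5) and 16.5 ± 1.94 CPM (SD, n = 4). Whether counting used strand is not given in the sources used here.

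Among the nuclear receptors, Nr1h4 was the one called. Its values were 31.6, 29.1, 43.7, 41.1 and 46.2 CPM in controls and 26.6, 24.4, 23.1 and 22.9 CPM in fusion livers. The 4 fusion livers were within 4 CPM of each other and below every control, of which controls 1 and 2 were the nearest. Controls had a mean of 38.4 ± 7.56 (SD, n = 5) and fusion livers one of 24.3 ± 1.73 CPM (SD, n = 4). The log2 difference of -0.66 ± 0.15 (SE) passed with an edgeR adjusted p of 0.0152. Without control 3 it was -0.60 and just missed the threshold (edgeR adjusted p 0.0517). In the high ribosomal set the fall of 0.40 on the log2 scale did not pass (edgeR adjusted p 0.0792) and in the low set the fall of 0.77 did (0.00130). The difference between those falls had an unadjusted p of 0.0470 and an adjusted p of 0.288 (edgeR interaction), within a test that called 25 of 13316 genes (0.188%) and none of the 9 factors.

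Hnf4a, the receptor without which hepatocytes fail to mature, was not called. It was at 81.5, 85.7, 151, 138 and 155 CPM in controls and 198, 154, 114 and 112 CPM in fusion livers. The groups overlapped and the split between ribosomal sets ran through both. The means of 122 ± 35.9 (SD, n = 5) and 144 ± 40.6 CPM (SD, n = 4) differed by 0.24 ± 0.24 (SE) on the log2 scale, with an adjusted p of 0.552 in edgeR. Within the high set it rose from 81.5 and 85.7 to 114 and 112 CPM (log2 fold change 0.45, edgeR adjusted p 0.0394). In the low set the values were 138 to 155 and 154 to 198 CPM, which overlapped (0.25, adjusted p 0.201). Hnf4aos, an antisense gene at the same locus with no shared exon base, totalled 89 counts over the 9 livers.

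Nr5a2, which controls bile acid and cholesterol genes, was at 1.78, 2.23, 3.81, 3.78 and 4.97 CPM in controls and at 8.45, 6.35, 2.76 and 2.74 CPM in fusion livers. Fusion livers 6 and 7 were above every control, and fusion livers 8 and 9 lay between controls of the same and of the other ribosomal set. On the log2 scale the difference was 0.61 ± 0.38 (SE), with an edgeR adjusted p of 0.312, and in the low set alone 0.84 (0.0159). Prox1 was at 8.14, 6.69, 7.71, 5.84 and 7.46 CPM in controls and at 6.15, 6.23, 5.29 and 5.41 CPM in fusion livers. Control 4 fell within the fusion range, so the groups overlapped, and the log2 fold change was -0.31 ± 0.15 (SE) with an edgeR adjusted p of 0.184. Prox1 also marks lymphatic endothelium. Its 3 other markers used here, Flt4, Lyve1 and Pdpn, together were at 49.0 to 55.9 CPM in controls and 47.1 to 64.3 CPM in fusion livers. Lyve1 also stands among the general endothelial markers, so this sum is not particular to lymphatic cells. The part of lymphatic cells in the Prox1 level was not tested.

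With the ribosomal split as a covariate, more of the factors passed, in both directions. In that fit 4345 genes (32.6%) were called, and 7 of the 9 factors. Called lower were Foxa2 (log2 fold change -0.86, edgeR adjusted p 0.000324), Nr1h4 (-0.61, 0.000594), Cebpa (-0.61, 0.00361) and Foxa3 (-0.45, 0.0185), 4 of 9 against 16.5% of all genes. Called higher were Nr5a2 (0.73, edgeR adjusted p 0.00571), Hnf4a (0.33, 0.0226) and Cebpb (0.44, 0.0353), 3 of 9 against 16.1%. Foxa1 (-0.44, 0.155) and Prox1 (-0.30, 0.109) did not pass. Within the high set, 20% of genes were called and 3 of the 9 factors, Foxa2 lower (9.8% of all genes) and Hnf4a and Cebpb higher (10.2%). Within the low set, 21.8% of genes were called and 4 factors, Foxa2, Cebpa and Nr1h4 lower (11.2%) and Nr5a2 higher (10.6%). Foxa2 was thus called lower in both sets. With sex added to the covariate fit, which was chosen after seeing the data, 4051 genes and the same 7 factors were called, each in the same direction.

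**Figure D2:**
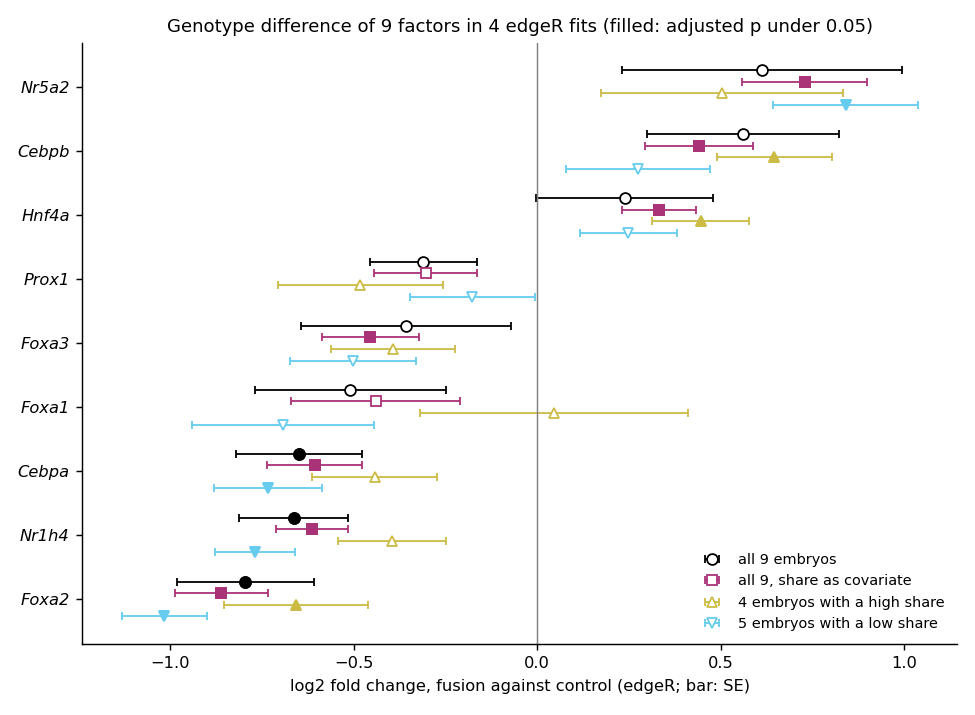
Log2 fold change of each factor, fusion against control livers, with its SE as a bar, in 4 edgeR fits; filled symbols passed an adjusted p of 0.05. Foxa2 is filled in all 4 fits, whereas Hnf4a, Cebpb and Nr5a2 lie above 0 in every fit and are filled in 2 fits each.

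All 10 hepatocyte markers had a log2 fold change below 0, with a median of -0.39. The 9 factors had a median of -0.36 but ran from -0.80 to 0.61, with 3 above 0. Sums of the hepatocyte markers overlapped, at 127422 to 180119 CPM in controls and 92404.6 to 154867 CPM in fusion livers. Of these markers 1, Apoa1, was called, lower (log2 fold change -0.89, edgeR adjusted p 0.0382). Sums of the bile duct cell markers did not overlap: 6 of 6 were measured, Krt7, Krt19 and Epcam were called lower, none higher, and their sum was 50.9 to 74.5 CPM in controls and 11.9 to 41.6 CPM in fusion livers, with Cldn4 under 1 CPM. Macrophage markers (6 of 6 measured, none called) summed to 431 to 467 CPM and 360 to 406 CPM, also without overlap. Neutrophil markers (6, none called) overlapped, at 4846 to 6825 and 3815 to 5867 CPM. Of the stellate and fibroblast markers, 1 of 6, Col1a1, was called lower, and of 6 endothelial and 4 measured erythroid markers none was called. Cela1, the 1 pancreas marker of 4 in the table, was called higher and did not overlap (33.3 ± 3.89 CPM, SD, n = 5, and 55.1 ± 16.2, SD, n = 4, edgeR adjusted p 0.0267). In whole livers, fewer cells of a type and less RNA per cell cannot be told apart, and the part of these cells in the levels of the 9 factors was not tested.

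Per kilobase of exon, which allows genes to be compared, the control order was Cebpa (61.3 to 92.4 CPM per kb in the 5 livers), Foxa3 (mean 56.3), Cebpb (27.9), Hnf4a (25.3), Nr1h4 (16.7), Foxa2 (14.8), Foxa1 (0.962), Prox1 (0.854) and Nr5a2 (0.562). Neighbours overlapped in range except Foxa3 over Cebpb and Foxa2 over Foxa1, where the ratio of the means was 15.4. In fusion livers the same 6 genes led, in the same order, at 48.5 for Cebpa, 43.9 for Foxa3 and 41.1 for Cebpb, and the ranges of Foxa3 and Cebpb, which did not overlap in controls, did so here. Foxa1, Prox1 and Nr5a2 thus formed a low tier in both genotypes, below 1.5 CPM per kb in every liver.

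**Figure D3:**
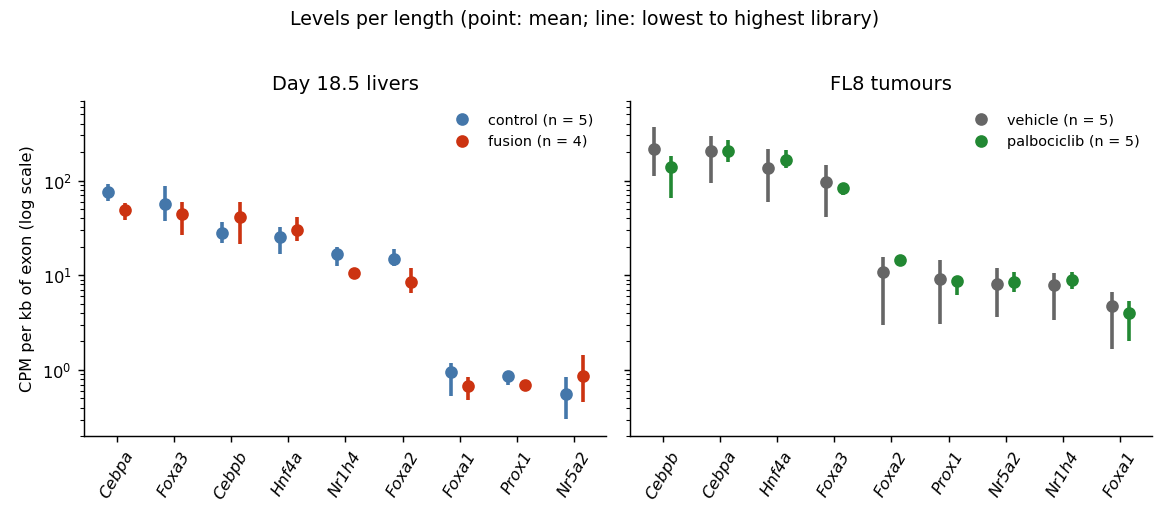
Level of each factor in CPM per kilobase of exon on a log axis, in livers (left) and tumours (right); points are group means and lines run from the lowest to the highest library. In livers 6 factors lie above 6 CPM per kb and 3 below 1.5, while in tumours the 9 factors lie between 1.66 and 364 CPM per kb; the panels were normalised separately.

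The other factors and the known targets of the 9 did not share one direction. Of 36 other liver-enriched transcription factors 35 could be tested, at a median log2 fold change of -0.16 against -0.01 over all genes. Of the 35, 3 were called higher and 5 lower, beside 5.99% and 6.81% of all genes. The lower ones included Nr1i3, the drug sensor CAR (15.2 to 3.12 CPM), Atf5 (841 to 418), Hlf (20.8 to 12.6) and Gata4 (16.7 to 11.1), which was named after its value was seen. The higher ones were the receptors Esrra (27.4 to 47.5 CPM) and Rora (23.0 to 32.3) and the zinc finger factor Klf15 (35.7 to 63.3). Of 12 co-regulators 1 was called, beside 12.8% of all genes in either direction. It was Ppargc1a, the coactivator of HNF4A and other receptors under fasting. Its level was 6.63 to 9.20 CPM in controls and rose to 42.2 to 77.7 CPM in fusion livers. Nr0b2 (SHP), a repressor induced by NR1H4, had 3.59 ± 1.90 CPM in controls (SD, n = 5) and 5.73 ± 1.63 in fusion livers (SD, n = 4) and did not pass (edgeR adjusted p 0.220).

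Targets of the factors divided in the same mixed way. Of the list of bile acid targets of NR1H4 and NR5A2, 8 genes were tested. Cyp8b1, which sets the cholic acid share of bile (log2 fold change -1.56, edgeR adjusted p 8.32e-05), was called lower. So were Cyp7a1, the first enzyme of bile acid synthesis (29.9 ± 6.50 to 6.17 ± 5.21 CPM, SD, n = 5 and 4), and Kng1 (-1.09), and none was called higher. These 3 of 8 stand beside 6.81% of all genes called lower. Kng1 is listed as a target, not as a bile acid gene. The list does not separate targets that the receptors induce from those they repress, and receptor activity was not tested. The median log2 fold change of the 8 was -0.53, and the bile salt pump gene Abcb11 was at 116 and 74.2 CPM without passing (edgeR adjusted p 0.102).

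Of 8 FOXA targets 5 were called higher and none lower, at a median of 0.80, beside 5.99% of all genes called higher and 6.81% lower. Those 5 were the gluconeogenic genes Pck1 (log2 fold change 5.32) and G6pc (2.36), the amino acid enzyme Tat (4.68), the fetal protein Afp (0.86) and Igfbp1 (0.74), which was named after its value was seen. Of 10 C/EBP targets tested, 4 were called higher, Pck1, Tat and G6pc again and the urea cycle gene Cps1 (0.85), and 1 lower, haptoglobin (Hp, -1.33), with a median of -0.19. The other 3 FOXA targets did not pass, with log2 fold changes of -0.03 (Alb), -0.08 (Apob) and -0.45 (Ttr), and with the ribosomal split as a covariate Ttr was called lower (-0.41, edgeR adjusted p 0.0282). The FOXA and C/EBP lists share members (4 genes stand in both), so their counts are not separate evidence, and Alb, in both, had 56378 ± 14567 CPM in controls (SD, n = 5) and 55272 ± 18560 in fusion livers (SD, n = 4). Of the 8 FOXA targets 6 also stand in another list, and whether the activity of the FOXA or C/EBP factors changed was not tested.

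**Figure D4:**
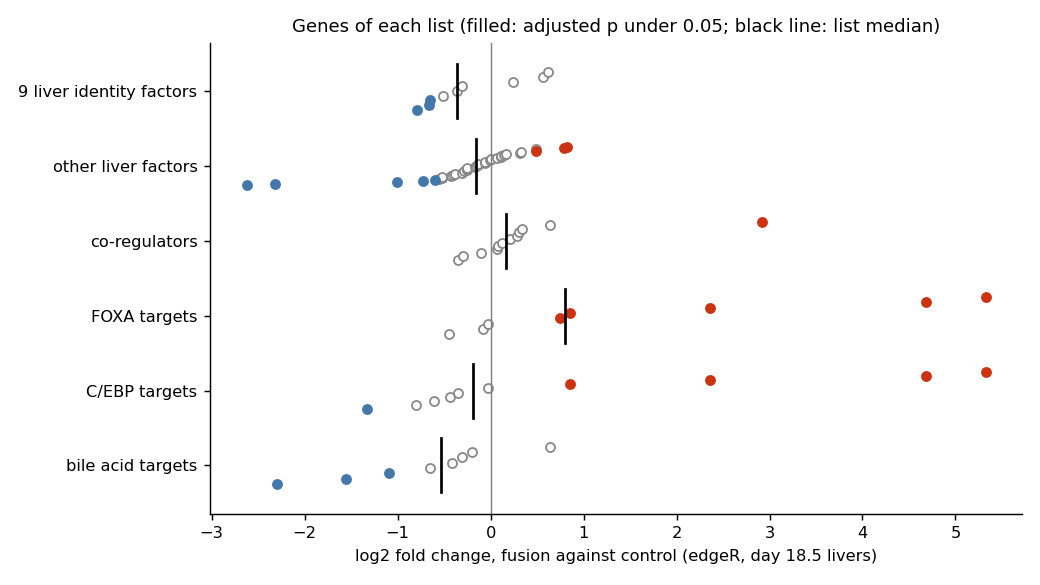
Log2 fold change, fusion against control livers, of every tested gene in the 9 factors, 2 lists of regulators and 3 lists of targets; filled points passed an edgeR adjusted p of 0.05 (blue lower, red higher) and black lines are list medians. The medians are -0.36 for the 9 factors, 0.80 for the FOXA targets and -0.53 for the bile acid targets of NR1H4 and NR5A2.

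The profile over the 9 livers of each called factor was compared with that of the 8301 genes of at least 10 CPM, by the root mean square distance between centred log2 values. Nearest to Foxa2 were Klkb1, which encodes plasma prekallikrein, Stbd1 and Gramd3 (0.12 for each). Nearest to Cebpa were Cmah (0.11), Ngef (0.11) and Echdc3 (0.12). Nearest to Nr1h4 were Grb14 (0.08), Cdc42bpg (0.08) and Rassf4 (0.09). All 9 were called lower with the fusion, as a small distance from a called factor makes likely.

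The starts of the 3 called factors and of Cebpb are shown, a choice made after their values were seen. The mean of Cebpb was higher in fusion livers, but Cebpb was not called. All 9 factors matched RefSeq promoter entries (14 of 32851, GRCm38.p6), and the 250 bases upstream of 4 starts are printed 5′ to 3′ on the gene's strand, in lower case with motif matches in capitals.
Cebpb, chr2:167688665-167688914 (+): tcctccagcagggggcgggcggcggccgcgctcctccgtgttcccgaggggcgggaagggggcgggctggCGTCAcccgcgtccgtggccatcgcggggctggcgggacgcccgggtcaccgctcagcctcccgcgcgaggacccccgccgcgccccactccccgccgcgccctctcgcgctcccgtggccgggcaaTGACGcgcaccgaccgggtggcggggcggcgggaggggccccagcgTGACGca
Foxa2, first of 3 starts, chr2:148046970-148047219 (-): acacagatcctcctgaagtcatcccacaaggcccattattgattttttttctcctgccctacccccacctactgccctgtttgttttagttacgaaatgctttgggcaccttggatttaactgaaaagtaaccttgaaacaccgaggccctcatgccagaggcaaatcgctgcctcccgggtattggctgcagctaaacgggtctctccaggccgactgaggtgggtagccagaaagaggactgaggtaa
Cebpa, chr7:35119043-35119292 (+): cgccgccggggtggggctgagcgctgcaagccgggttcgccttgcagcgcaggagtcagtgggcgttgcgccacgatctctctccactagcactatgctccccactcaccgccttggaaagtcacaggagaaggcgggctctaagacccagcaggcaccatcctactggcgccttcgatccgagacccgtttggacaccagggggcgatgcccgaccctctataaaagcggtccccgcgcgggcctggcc
Nr1h4, chr10:89506659-89506908 (-): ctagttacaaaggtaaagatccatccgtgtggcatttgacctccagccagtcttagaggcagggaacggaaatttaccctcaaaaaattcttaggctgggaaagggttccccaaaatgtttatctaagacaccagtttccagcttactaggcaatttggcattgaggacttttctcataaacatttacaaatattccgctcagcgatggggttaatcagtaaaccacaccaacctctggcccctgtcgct
The Nr1h4 entry is the window before a start inside the annotated gene (chr10:89454234-89533585). Motif strings searched on both strands included TGACGTCA and its part TGACG for CREB, TGTTTAC and TATTTAC for forkhead factors, CAAAGTCCA for HNF4A, TCAAGGTCA for NR5A2, the inverted repeat bound by NR1H4, and TTGCGCAA and the looser TTGCNNAA, which includes it, for C/EBP. In this order they occur in 1.55%, 17.8%, 3.17%, 2.73%, 0.384%, 0.387%, 0.00609%, 0.164% and 9.56% of all promoter windows of that length. The Cebpb window held TGACG 3 times, starting 180 bases upstream on the minus strand and 53 and 7 bases upstream on the plus strand. Of all windows, whatever their base composition, 0.688% hold it 3 times or more. The Cebpb window is 81.6% G and C, and windows of like composition were not compared. The windows of Foxa2, Cebpa and Nr1h4 held none of these strings. Elsewhere among the 9, Foxa1 held TGTTTAC on the minus strand 141 bases upstream, and the second Nr5a2 start held TTGCNNAA 243 bases upstream. A match describes letters, not binding, and its absence says only that those letters are not in the window.

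In the tumours all 9 factors were expressed, and none differed after palbociclib beyond the spread of the tumours. The test was limma on log2(CPM + 1), so fold changes of low genes are understated. The groups overlapped for each of the 9 (120 genes of 12829, 0.935%, did not overlap), no factor had an unadjusted p under 0.05, while 586 genes (4.57%) did, and the adjusted p of each was 0.953 or more. On the reads recovered from the CPM, edgeR called 0 of 14367 genes and DESeq2 7, none of them a factor. The median log2 fold change of the 9 was 0.10 beside 0.14 over all genes. That shift of all genes was 0.01 with TMM factors, and then Cebpa (-0.08), Nr5a2 (-0.01) and Prox1 (-0.04) lay below 0.

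**Figure D5:**
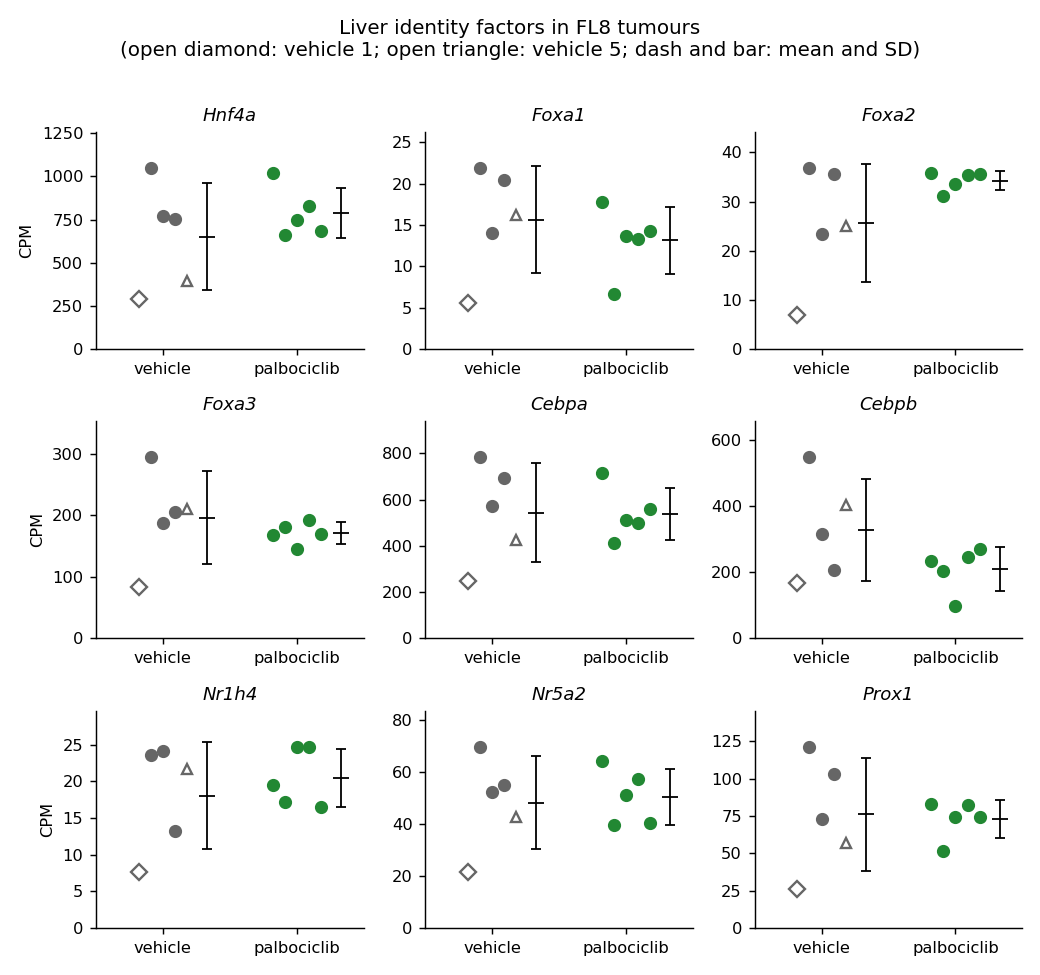
CPM of each factor in 5 vehicle and 5 palbociclib tumours, on linear axes from 0; each point is 1 tumour, the dash and bar are the mean and SD, and open symbols mark vehicle tumours 1 (diamond, 46.6% mitochondrial reads) and 5 (triangle, 2955729 reads). The groups overlap for all 9 factors and the diamond is the lowest vehicle point in each.

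Hnf4a was at 287, 1050, 770, 752 and 396 CPM in vehicle tumours 1 to 5 and at 1020, 661, 745, 829 and 683 CPM in palbociclib tumours 1 to 5. The palbociclib values lay inside the vehicle range, which vehicle tumours 1 and 5 extended downwards. The means were 651 ± 309 and 788 ± 145 CPM (SD, n = 5 each), with a log2 difference of 0.41 ± 0.33 (SE) and a limma adjusted p of 0.953. Without vehicle tumours 1 and 5, an alternative chosen after seeing the data, it was -0.12. Foxa2 was at 6.999, 36.9, 23.4, 35.6 and 25.0 CPM with vehicle and at 35.8, 31.2, 33.5, 35.3 and 35.6 CPM with palbociclib. The palbociclib tumours were tightly grouped near the 2 highest vehicle tumours. The difference was 0.59 ± 0.35 (SE) on the log2 scale, with a limma adjusted p of 0.953, and without vehicle tumour 1 it was 0.20.

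Cebpb had the lowest log2 fold change of the 9. It was at 167, 547, 314, 206 and 403 CPM with vehicle and at 233, 204, 99.2, 246 and 270 CPM with palbociclib. The highest 3 tumours were vehicle tumours, and palbociclib tumour 3 was the lowest of all. The means were 328 ± 154 and 210 ± 66.7 CPM (SD, n = 5 each), a log2 fold change of -0.58 ± 0.34 (SE) with a limma adjusted p of 0.953. Tmem189, which overlaps it, was at 26.8 ± 6.28 and 25.0 ± 7.26 CPM. Cebpa was at 249, 783, 571, 695 and 425 CPM with vehicle and at 715, 411, 510, 497 and 558 CPM with palbociclib, with the palbociclib values inside the vehicle range (log2 fold change 0.07 ± 0.31, SE). The ratio of Cebpa to Cebpb per kilobase was 0.851, 0.816, 1.04, 1.92 and 0.601 with vehicle and 1.75, 1.15, 2.94, 1.15 and 1.18 with palbociclib. All but vehicle tumour 4 of the vehicle ratios lay below the lowest palbociclib ratio. This ratio was formed after the values of both genes were known and was not tested.

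The other 5 factors overlapped as broadly. Foxa3 ran from 83.7 to 294 CPM with vehicle and from 145 to 192 CPM with palbociclib, and Foxa1 from 5.52 to 21.9 and from 6.70 to 17.8 CPM. Nr1h4 ran from 7.68 to 24.2 and from 16.5 to 24.7 CPM, and Nr5a2 from 21.4 to 69.6 and from 39.4 to 64.0 CPM. Prox1 ran from 25.8 to 121 CPM with vehicle and from 51.5 to 82.7 CPM with palbociclib, and its antisense gene Prox1os, which shares 133 exon bases, was at 5.59 ± 1.99 and 4.11 ± 1.53 CPM (SD, n = 5 each). Their log2 fold changes were -0.09 (Foxa3), -0.17 (Foxa1), 0.26 (Nr1h4), 0.14 (Nr5a2) and 0.10 (Prox1).

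All 9 factors had a wider range with vehicle than with palbociclib, and vehicle tumour 1 was the lowest vehicle tumour for all 9. With mitochondrial genes left out of the total, it was the lowest for 5 of 9, and its Hnf4a level was 538 CPM. Marker sums of other cells also ranged widely. Those of skin, muscle and fat, 33.6 CPM or less with vehicle and 51.3 or less with palbociclib, had the wider range with palbociclib, and those of the other lists with vehicle. Erythroid markers, 8 with Klf1 under 1 CPM, summed to 1298 to 96616 CPM with vehicle and 1734 to 8454 CPM with palbociclib. Macrophage markers, 5 of 6 in the files with Vsig4 under 1 CPM, summed to 349 CPM in vehicle tumour 1 and to 6.09 to 59.5 CPM in the other 9. Hepatocyte markers, 10 of 10, summed to 40267 to 116045 and 85070 to 128642 CPM. Of the bile duct markers, Krt19 and Cldn4 were under 1 CPM, and Krt7 and Epcam are not among the genes analysed here. The part of host cells in the 9 factors was not tested.

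Per kilobase, Cebpb (218 ± 102 CPM per kb, SD, n = 5) and Cebpa (207 ± 81.0) led in vehicle tumours, followed by Hnf4a (135), Foxa3 (96.3), Foxa2 (10.8), Prox1 (9.06), Nr5a2 (8.16), Nr1h4 (7.84) and Foxa1 (4.70). The only neighbours without overlap were Foxa3 and Foxa2, with a ratio of 8.93. With palbociclib the order was Cebpa (204), Hnf4a (163), Cebpb (140), Foxa3 (71.0 to 94.4 in the 5 tumours), Foxa2 (14.5), Nr1h4 (8.90), Prox1 (8.70), Nr5a2 (8.55) and Foxa1 (3.95), and the gaps below Foxa3, Foxa2 and Nr5a2 were free of overlap. No gene of the 3 target lists was called. Their median log2 fold changes were 0.34 (FOXA), 0.39 (C/EBP) and 0.15 (bile acid targets of NR1H4 and NR5A2) on the scale where all genes had 0.14.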

How the data were processed

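Gene counts of 9 livers were used as deposited by the authors; per the submitters' processing notes, reads were aligned with STAR 2.5.1b to mm10. The normalised block of the same table is those counts rescaled and was not used. Tumour values are CPM deposited by the authors; per the submitters' processing notes, cutadapt 2.10, HISAT2, featureCounts and R 4.1.2 were used with mm10, and DESeq2 is named for both data types. All tumour values came out as whole reads (100% within 0.001 read). Annotation, strand setting and multi-mapping were not given in the sources used here. Lengths and overlaps were taken from GENCODE M21.

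Livers were tested with edgeR 4.0.16 (quasi-likelihood, TMM, filterByExpr; 13316 of 13549 genes). For tumours, where CPM are not counts, limma 3.58.1 with its trend option was run on log2(CPM + 1), keeping genes whose mean reached 1 CPM. The p-values were adjusted by Benjamini-Hochberg over all genes tested. Groups came from the labels (5 and 4 livers, 5 and 5 tumours), and nothing in them says whether livers shared a litter, so p-values measure the spread between these samples. No pair of libraries of the same group agreed within sampling noise (lowest chi-square per degree of freedom 13.0), and pairs across groups were not compared. Livers were split at 8% ribosomal protein counts, and sex was read from Xist above or below 10 CPM. Alternatives were other scalings and filters, DESeq2 1.42.0, covariates, each set of livers alone, and leaving out each library. The fits were tested on simulated data. Counting error is small at these depths except where counts are low. In livers Foxa1, Nr5a2 and Prox1 rest on as few as 21, 16 and 48 counts. In vehicle tumour 5, Foxa1, Nr1h4 and Foxa2 rest on 48, 64 and 74 reads. Intervals beyond the replicate spread were not computed.

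The 9 factors, gene lists and markers were chosen with earlier results of these data known. Named genes are the 9 factors, Prkaca, genes that overlap a factor, up to 4 called genes in each direction of each list by smallest p, and the 3 genes nearest in profile to each called factor; some items are not reported here.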

Additional observations from a re-analysis of the deposited data

Results flagged for a closer look

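Among the 36 groups of values (9 factors in 4 groups), 1 had a library that stood apart. Prox1 was at 51.5 CPM in palbociclib tumour 2, against 74.2 to 82.7 CPM in the other 4 palbociclib tumours, a gap larger than Dixon's 95% limit for 5 values. Chance gives such a gap in about 1 of 20 groups. The vehicle tumours ranged from 25.8 to 121 CPM, so the value lies inside their range.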

How the results depend on the processing

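In livers the 1704 called genes became 4345 with the ribosomal split as a covariate, 4051 with sex added, 2589 within the high set, 2950 within the low set and 969 to 1581 with each liver left out (lowest without control 3, 987 without fusion liver 8, 1107 without fusion liver 7). With sex alone as a covariate 1284 genes and 2 factors, Foxa2 and Nr1h4, were called. The 3 called factors became 7 in both fits with the ribosomal split and 1 to 3 with each liver left out, where Foxa2 was the one called without control 3. Foxa1 changed sign to 0.046 in the high set. DESeq2 called 2443 genes and the same 3 factors. No paired analysis of livers was possible because the groups share no replicate numbers.

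In tumours the 0 called genes became 7 with DESeq2 and 58 with array quality weights, and no factor was called in the main test or in any alternative. Signs near 0 changed for Cebpa, Nr5a2 and Prox1: -0.081, -0.0064 and -0.044 with TMM factors, -0.080, -0.0048 and -0.042 without mitochondrial genes in the total, -0.10, -0.017 and -0.11 with edgeR on reads, -0.11, -0.029 and -0.12 with DESeq2, -0.17, -0.066 and -0.088 with quality weights (Nr1h4 -0.066), and -0.36, -0.23 and -0.42 without vehicle tumours 1 and 5 (Hnf4a -0.12). With each tumour left out, Cebpa ranged from -0.19 to 0.23, Nr5a2 from -0.12 to 0.29, Prox1 from -0.23 to 0.31, Foxa3 from -0.37 to 0.078 and Foxa1 from -0.47 to 0.037; the lowest of each was without vehicle tumour 1. With the replicate block 0 genes were called and the 9 factors had a median of 0.10; same-numbered tumours did not deviate together (correlations of -0.35 to -0.02). The causes were not tested. Depth limits Foxa1, Nr5a2 and Prox1 in livers and vehicle tumour 5, where 3 reads are 1.01 CPM.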

Other observations

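Of the summed FOXA level per kilobase, Foxa3 made up 73.1% to 81.5% in controls and 78.1% to 85.5% in fusion livers, and 82.6% to 89.9% in vehicle and 79.6% to 85.5% in palbociclib tumours. Foxa2 made up 17.7% to 24.6% in controls, 13.6% to 19.4% in fusion livers, 6.46% to 12.3% in vehicle tumours and 12.6% to 15.8% in palbociclib tumours. The Foxa2 share overlapped between the liver genotypes as a whole, where its level did not. Within each ribosomal set it did not overlap, though groups this small separate easily by chance. Controls were at 17.7% and 18.2% and fusion livers at 13.6% and 16.7% in the high set. In the low set controls were at 21.8% to 24.6% and fusion livers at 16.2% and 19.4%. In the tumours the share did not overlap, where the level did, and no test of these shares was made. Livers and tumours were normalised separately, but shares within a library do not depend on that scaling. They can still depend on the RNA sequenced, poly-A in livers and total in tumours, and on the aligner, which also differed. Shares are therefore not compared between livers and tumours.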
